A study of Homo sapiens with 12 samples.

Results

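The YAP/TEAD pathway and its targets were described here through 10 genes, chosen by name, of the 58302 genes listed in every library. The genes were YAP1, WWTR1, TEAD1, TEAD4, CTGF, CYR61, ANKRD1, AMOTL2, AJUBA and LATS2, with CTGF and CYR61 under their older symbols (now CCN2 and CCN1). The 12 RNA sequencing libraries came from 769-P and ACHN, cultured cell lines that the labels give as clear cell renal cell carcinoma cells. Each line was transfected for 48 h with siRNA-NUF2 (siNUF2) or with siRNA-control (siControl), with 3 replicates in each of the 4 groups. NUF2 encodes a subunit of the NDC80 complex, which joins kinetochores to spindle microtubules in mitosis. According to the study's supplement, si-NUF2 was a mixture of siRNAs and not a single one. The study's methods give different media for 769-P and ACHN cells, so the line and its medium cannot be told apart. Nothing in the labels says that the replicates came from separate cultures, and the p-values below then measure only the spread between these libraries. All 10 genes passed the filter on low values in each comparison, an FPKM (fragments per kilobase of exon, scaled to library depth) of at least 0.5 in at least 3 libraries.

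YAP1 and WWTR1 (which encodes TAZ) are transcriptional coactivators that do not bind DNA themselves. They act through the TEAD family of DNA-binding proteins, here TEAD1 and TEAD4, on genes such as CTGF, CYR61 and ANKRD1. The Hippo kinase cascade, whose last kinases include LATS2, phosphorylates YAP and TAZ and keeps them out of the nucleus, and the cascade is known for its response to cell contact, cell shape and the cytoskeleton. AMOTL2 encodes an angiomotin, which holds YAP at junctions and in the cytoplasm, and AJUBA encodes a LIM protein that binds LATS kinases. AMOTL2, AJUBA and LATS2 are themselves known as genes switched on by YAP and TEAD, so the list holds regulators and targets at once.

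The windows just before the gene starts show how the list differs in sequence. RefSeq promoter windows on GRCh38.p14 were found for 7 of the 10 genes (10 windows in all), and the 250 bases before the start were searched for GGAATG, the core that TEAD proteins recognise, on both strands (CATTCC on the other). The 4 windows shown are those of the coactivator YAP1 and of 3 target genes, each with its matches in capitals, and the match in AJUBA is given in words.
CTGF (chromosome 6, reverse strand, chr6:131951373-131951622): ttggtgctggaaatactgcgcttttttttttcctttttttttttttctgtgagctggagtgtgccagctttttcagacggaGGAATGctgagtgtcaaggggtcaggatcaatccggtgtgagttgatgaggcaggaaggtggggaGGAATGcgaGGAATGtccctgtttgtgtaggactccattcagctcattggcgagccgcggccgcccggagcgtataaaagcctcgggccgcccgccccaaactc
ANKRD1 (chromosome 10, reverse strand, chr10:90921088-90921337): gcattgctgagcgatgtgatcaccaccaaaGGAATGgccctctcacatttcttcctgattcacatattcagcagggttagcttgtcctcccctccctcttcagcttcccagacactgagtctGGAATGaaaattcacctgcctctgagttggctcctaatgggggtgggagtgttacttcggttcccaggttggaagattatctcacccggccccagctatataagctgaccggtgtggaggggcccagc
AMOTL2, the second of its windows (chromosome 3, reverse strand, chr3:134374448-134374697): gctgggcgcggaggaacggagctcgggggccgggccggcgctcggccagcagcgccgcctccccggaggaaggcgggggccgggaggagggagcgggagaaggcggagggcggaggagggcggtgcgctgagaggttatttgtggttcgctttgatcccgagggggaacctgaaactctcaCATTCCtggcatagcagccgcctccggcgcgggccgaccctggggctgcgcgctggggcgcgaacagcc
YAP1 (chromosome 11, forward strand, chr11:102110197-102110446): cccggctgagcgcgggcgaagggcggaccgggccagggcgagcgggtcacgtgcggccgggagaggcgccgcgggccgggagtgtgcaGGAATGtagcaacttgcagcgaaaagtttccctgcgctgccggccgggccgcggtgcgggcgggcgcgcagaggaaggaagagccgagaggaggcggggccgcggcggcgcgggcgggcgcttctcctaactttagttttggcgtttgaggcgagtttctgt

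CTGF carried 3 matches, at positions -169, -104 and -95 from the start (first base of each match, the base before the start being -1). ANKRD1 carried 2, at -220 and -128, AMOTL2 carried 1 at -69, YAP1 carried 1 at -162, and the second window of AJUBA carried 1 at -59. No window of WWTR1 or LATS2 and neither of the first windows of AMOTL2 and AJUBA held these letters. Of all 35116 windows of this length, 11.9% held at least 1 match, 0.94% held at least 2 and 0.0826% held at least 3. TGAGTCA, the usual site of AP-1 factors (TGACTCA on the other strand; its letters can overlap GGAATG by their first bases), was found in none of the 10 windows, against 4.2% of all windows. A match in these windows is a run of letters and was not measured as a binding site.

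Between 27156023 and 35862096 reads per library were recovered from the FPKM, through the exon lengths of GENCODE release 29, for genes whose values came out as whole reads, and the FPKM were scaled to between 28768675 and 38542660 fragments per library. NUF2 was lower in each siNUF2 library than in every siControl library of its line. In 769-P its FPKM was 4.17, 3.86 and 3.01 with siNUF2 against 19.4, 17.8 and 17.8 with siControl (replicates 1, 2 and 3), a log2 fold change of -2.29 (SE 0.127, limma, adjusted p = 0.00127). In ACHN cells it was 2.16, 5.14 and 4.25 against 11.6, 15.01 and 14.8, a log2 fold change of -1.88 (SE 0.317, limma, adjusted p = 0.217, and 0.0131 with the replicate number as a block). Of the kidney markers, PAX8 (44.7 to 199.5 FPKM), PAX2, CDH16 (1.01 to 12.4 FPKM), KRT8 and KRT18 were found in all 12 libraries. EPCAM lay between 0.542 and 1.17 FPKM in 769-P and between 8.85 and 19.3 in ACHN cells. CA9, a defining marker of clear cell renal cell carcinoma, did not exceed 0.121 FPKM in any library. EGLN3 did not exceed 0.294, and NDUFA4L2 stayed at or below 0.0496 in 769-P but lay between 1.07 and 4.08 in ACHN cells. VIM, also a marker of that carcinoma, was at 125.8 to 191.7 FPKM over all 12 libraries. The 7 markers of immune, endothelial and fibroblast cells summed to between 0.176 and 0.25 FPKM in 769-P siControl, 0.215 and 0.234 in 769-P siNUF2, 1.25 and 3.92 in ACHN siControl and 1.26 and 3.41 in ACHN siNUF2, with CD3E at 0 in every library and nearly all of the ACHN sums from COL1A1.

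Same-numbered libraries of the siNUF2 and siControl groups moved together: the correlation across genes of their deviations from the group means for replicates 1, 2 and 3 was 0.359, 0.271 and 0.19 in 769-P, and the ACHN pairs were at 0.647, 0.735 and 0.46. The labels do not say what a replicate number stands for, and each result is therefore given without the replicate number in the fit, and beside it with the number as a block where that changes the call. Of the genes that overlap members, MIR6827 (at AMOTL2) reached 7.92 FPKM and RNU6-1098P (at WWTR1) 4.32, with 0 shared exon bases. Genes that share exon bases with members were at low levels. WWTR1-AS1, which shares 795 exon bases with WWTR1 on the other strand, reached 0.335 FPKM. AL133346.1, antisense to CTGF over 195 bases, reached 0.314 (0.0644 in the 769-P libraries), and RPL39P5, which shares 187 bases with AMOTL2, reached 0.344. Whether the counting used strand is not given in the sources used here, so reads in these shared bases cannot be assigned to a strand.

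The first question was how much of each gene the lines carried under control siRNA. In the siControl libraries 9 of the 10 genes were lower in 769-P than in ACHN cells and WWTR1 was higher, with no overlap between the groups for any of them. Over all genes tested, 33.9% lay wholly lower and 34.5% wholly higher in 769-P. All 10 passed the test (limma on log2(FPKM + 0.1), adjusted p under 0.05), where 30.2% of the 15376 genes tested were lower in 769-P and 31.1% were higher. The median log2 difference of the 10 genes was -1.92, against 0.0099 over all genes tested.

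The lines differed most in CTGF, a secreted matricellular protein and a classic YAP/TEAD target. In 769-P siControl its level was 1.19, 0.373 and 0.66 FPKM (82, 28 and 50 reads), whereas ACHN siControl had 16.5, 85.2 and 39.7 FPKM. Every ACHN library thus stood above every 769-P library, and the log2 difference was -5.62 (SE 0.624, limma, adjusted p = 0.000324). CTGF also varied widely between replicates: its highest value was 5.18 times its lowest in ACHN siControl and 3.19 times in 769-P siControl, where ANKRD1 varied 3.81 times, so the size of the gap is known less well than its direction.

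CYR61, the close relative of CTGF, was the most abundant of the 10 genes per exon length in all 4 groups. Its mean was 80.2 ± 40.2 FPKM (SD, n = 3) in 769-P siControl and 286.5 ± 66.7 in ACHN siControl, a log2 difference of -1.93 (SE 0.385, limma, adjusted p = 0.00448). ANKRD1, a nuclear and sarcomeric ankyrin repeat protein, was low in both lines, at 0.988 ± 0.633 FPKM (SD, n = 3) in 769-P siControl and 4.41 ± 0.958 in ACHN siControl (log2 difference -2.19). The regulators that are also targets differed by similar amounts. LATS2 was at 5.88 ± 0.122 FPKM (SD, n = 3) against 29.4 ± 4.83 (log2 difference -2.28), AJUBA at 13.8 ± 1.61 against 56.5 ± 8.73 (-2.01) and AMOTL2 at 22.2 ± 5.71 against 82.1 ± 8.63 (-1.90). The adjusted p-values of these 4 genes, by limma, lay between 2.1e-05 and 0.00396.

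The differences were smaller for the coactivators and TEAD1 than for TEAD4. YAP1 stood at 10.8 ± 0.431 FPKM (SD, n = 3) in 769-P siControl and 15.5 ± 0.875 in ACHN siControl (log2 difference -0.50, SE 0.0886). WWTR1 ran the other way, at 43.1 ± 1.5 FPKM (SD, n = 3) against 24.5 ± 4.65 (log2 difference 0.84, SE 0.149). In 769-P siControl the WWTR1 level was thus far above that of YAP1 in all 3 libraries, while in ACHN cells the ranges of 19.2 to 27.4 FPKM for WWTR1 and 14.5 to 16.1 FPKM for YAP1 lay nearer together. TEAD1 was at 15.1 ± 0.555 FPKM (SD, n = 3) against 23.3 ± 3.01 (log2 difference -0.60), and TEAD4 at 10.3 ± 0.834 against 34.8 ± 6.57 (-1.72). In 769-P siControl TEAD1 exceeded TEAD4 in each library, and in ACHN siControl the order was turned around.

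**Figure D1:**
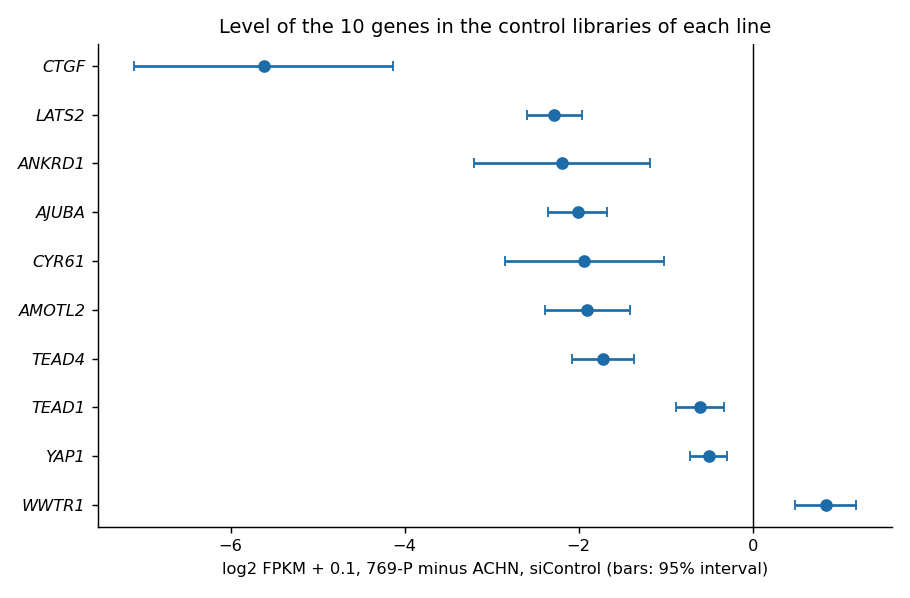
Difference in level between the siControl libraries of 769-P and ACHN for the 10 genes, as log2(FPKM + 0.1) on the horizontal axis with 95% intervals from limma (3 libraries per line). Points left of 0 are lower in 769-P: CTGF lies farthest out at -5.62, and WWTR1 alone lies to the right, at 0.84.

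Ordered by level, 769-P siControl ran from CYR61 through WWTR1, AMOTL2, TEAD1, AJUBA, YAP1, TEAD4, LATS2 and ANKRD1 to CTGF. The ranges of 4 pairs of neighbours overlapped there: CYR61 and WWTR1, TEAD1 and AJUBA, YAP1 and TEAD4, and ANKRD1 and CTGF. ACHN siControl ran from CYR61 through AMOTL2, AJUBA, CTGF, TEAD4, LATS2, WWTR1, TEAD1 and YAP1 to ANKRD1, with overlap between each pair of neighbours from AJUBA to TEAD1. CTGF thus had the lowest mean of the 10 genes in 769-P and a mean above those of the TEAD genes in ACHN cells.

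The second question was what the knockdown did in 769-P cells. The target genes were higher with siNUF2: the log2 fold changes were 1.46 for ANKRD1, 1.40 for CTGF, 0.84 for CYR61, 0.63 for LATS2, 0.49 for AMOTL2 and 0.33 for AJUBA, and YAP1 and TEAD4 were higher by 0.37 and 0.36. WWTR1 and TEAD1 were at 0.03 and -0.14. Without the block 2 of the 10 genes rose (YAP1 and LATS2) and none fell, against 5.34% of the 14158 genes tested that rose. With the block 8 of 10 rose and none fell, against 13.8% of genes that rose and 13.8% that fell. The count without the block was 1 when any one siNUF2 library or siControl replicate 2 was left out and 4 without siControl replicate 1. With the block the count was 5 without replicate 2. The share of all genes called in these fits is not given here, so the counts cannot be set against it. Limma-voom on the recovered reads, without the block, called 3 (YAP1, CTGF and LATS2), and its share of all genes is not given here. The median log2 fold change of the 10 genes was 0.43, against -0.0076 over all genes tested. These are bulk libraries, in which more cells with a transcript and more transcript per cell cannot be told apart.

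**Figure D2:**
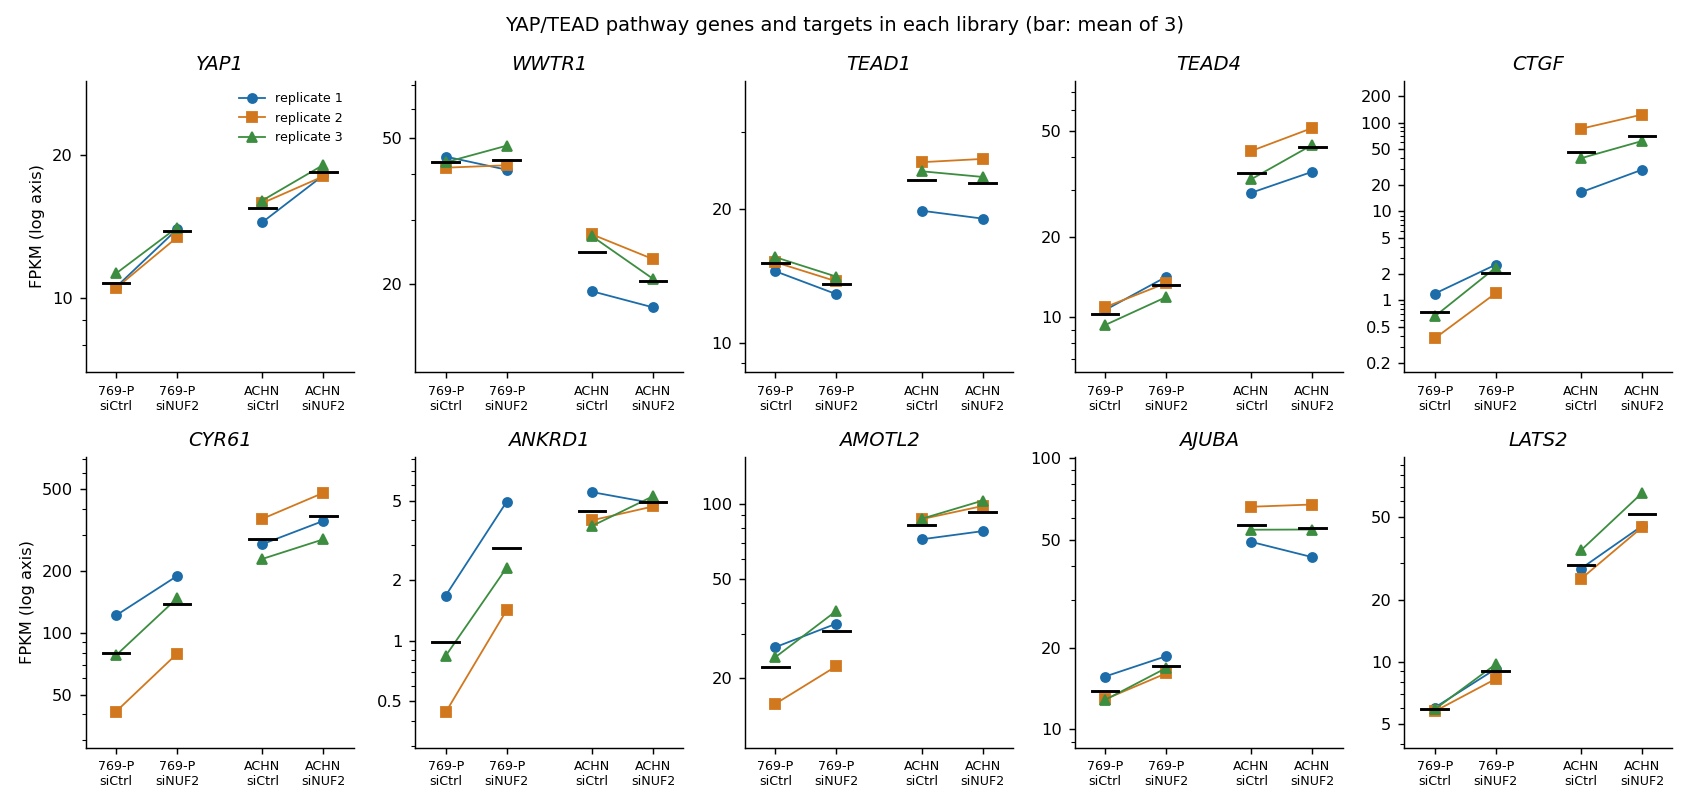
FPKM of each of the 10 genes in the 12 libraries on a log axis, with a line joining the siControl and the siNUF2 library of the same replicate number and a bar at each group mean (n = 3). In 769-P the lines of 8 genes rise in all 3 replicates, while the starting levels of CTGF, CYR61, ANKRD1 and AMOTL2 differ widely between replicates.

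ANKRD1 showed the largest response of the 10 in 769-P. It was at 4.93, 1.42 and 2.32 FPKM with siNUF2 and at 1.68, 0.441 and 0.843 with siControl. Replicate 2 was lowest and replicate 1 highest under both siRNAs, so that the groups overlapped, yet each siNUF2 library lay above its same-numbered control by 1.37 to 1.51 on the log2 scale. The fold change had an SE of 0.544 without the block (limma, adjusted p = 0.139) and of 0.0939 with it (adjusted p = 0.00486).

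CTGF followed the same order of replicates. Its FPKM was 2.52, 1.20 and 2.34 with siNUF2 against 1.19, 0.373 and 0.66 with siControl, and the lowest siNUF2 value lay just above the highest control value. The log2 fold change of 1.40 had an SE of 0.417 (limma, adjusted p = 0.0798) and of 0.165 with the block (adjusted p = 0.00807). By limma-voom without the block it was 1.57 (adjusted p = 0.0421). At these low levels the size depends on the pseudocount: with 1 in place of 0.1 it was 0.80 for CTGF and 0.92 for ANKRD1, both still called with the block (adjusted p = 0.00753 and 0.0064 by limma). CYR61, a secreted protein like CTGF, was at 189.2, 79.1 and 147.3 FPKM with siNUF2 against 121.6, 41.3 and 77.7 with siControl. Its log2 fold change of 0.84 fell to 0.43 without siControl replicate 2. The groups overlapped widely, but in every pair the siNUF2 library stood at 155.9% to 193.4% of its same-numbered control (limma, adjusted p = 0.273, and 0.00548 with the block).

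LATS2, the kinase that restrains YAP, rose in 769-P with and without the block. With siNUF2 it was at 9.23, 8.26 and 9.73 FPKM and with siControl at 5.996, 5.75 and 5.88, so the groups lay well apart. The log2 fold change of 0.63 had an SE of 0.0847 (limma, adjusted p = 0.0103), and with 1 library left out in turn the adjusted p lay between 0.023 and 0.0448. When all 12 libraries were fitted together the call was lost (adjusted p = 0.0518).

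YAP1 itself rose by a smaller step. Its FPKM was 13.96, 13.4 and 14.1 with siNUF2 and 10.6, 10.51 and 11.3 with siControl, without overlap (log2 fold change 0.37, SE 0.067, limma, adjusted p = 0.0214). The call rested on the full set of libraries: with 1 library left out the adjusted p lay between 0.0475 and 0.0814, and it was above 0.05 without any one of the siNUF2 replicates and without siControl replicate 2. With the block the adjusted p was 0.00859, and 0.0545 without replicate 2.

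TEAD4 was at 14.2, 13.4 and 11.9 FPKM with siNUF2 against 10.6, 10.9 and 9.35 with siControl (log2 fold change 0.36, limma, adjusted p = 0.0611, and 0.00949 with the block). AJUBA was at 18.6, 16.1 and 16.8 FPKM against 15.7, 12.9 and 12.8 (adjusted p = 0.0996 by limma, and 0.013 with the block). Both genes had siNUF2 libraries that were all above the controls. AMOTL2 overlapped, at 33.1, 22.3 and 37.3 FPKM against 26.6, 15.8 and 24.3, but was higher in each pair (adjusted p = 0.26 by limma, and 0.0113 with the block), and its log2 fold change of 0.49 was 0.25 without siControl replicate 2.

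WWTR1 and TEAD1 did not pass. WWTR1 was at 41.1, 42.2 and 47.7 FPKM with siNUF2 and at 44.6, 41.6 and 43.0 with siControl (log2 fold change 0.03, 95% interval -0.15 to 0.21). TEAD1 was lower in every siNUF2 library, at 12.9, 13.8 and 14.1 FPKM against 14.5, 15.2 and 15.6 (log2 fold change -0.14, 95% interval -0.30 to 0.02). TEAD1 did not pass the test without the block (limma, adjusted p = 0.239) or with it (0.0705). The siNUF2 values lay wholly above the controls for 5 genes (YAP1, TEAD4, CTGF, AJUBA and LATS2), against 16.0% of all genes tested, and 8 genes were higher in all 3 same-numbered pairs, against 29.7%. In an exact permutation test of one gene the smallest possible p is 0.1 at this number of libraries, and the 5 genes and TEAD1 were at that limit.

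In ACHN cells LATS2 and CTGF had the largest responses to the knockdown, and the replicates spread more widely. The log2 fold change was 0.82 for LATS2, 0.68 for CTGF, 0.38 for CYR61, 0.34 for TEAD4 and 0.26 for YAP1. ANKRD1 and AMOTL2 were both at 0.19, AJUBA at -0.04, TEAD1 at -0.01 and WWTR1 at -0.24. By limma without the block 0 of the 10 genes were called, as were 0 of the 15111 genes tested (0%); 1233 genes (8.16%) had an unadjusted p under 0.05, among them YAP1 and LATS2, and limma-voom on the recovered reads also called 0 genes. With the block 5 genes rose (YAP1, TEAD4, CTGF, CYR61 and LATS2) and none fell, against 6.71% of genes that rose and 4.88% that fell. With the block, 0 genes of the list were called when replicate 3 was left out, and 3 when replicate 1 or 2 was. Such fits hold fewer pairs, and the share of all genes called in them is not given here. Whether the loss is particular to these genes was not tested. The median log2 fold change was 0.22 over the list and -8.06e-05 over all genes tested.

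LATS2 was again clear of its controls. It was at 45.5, 44.8 and 65.6 FPKM with siNUF2 and at 28.3, 25.2 and 34.7 with siControl. The siNUF2 library stood at 161.1% to 191.3% of its same-numbered control, with an SE of 0.199 on the log2 scale without the block (limma, adjusted p = 0.347) and of 0.0602 with it (adjusted p = 0.0109, and 0.0657 without replicate 3). In the fit of all 12 libraries, LATS2 was the only gene of the list called in ACHN cells (adjusted p = 0.0375).

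CTGF in ACHN cells showed how far the replicates lay apart. With siNUF2 it was at 29.5, 122.9 and 62.0 FPKM and with siControl at 16.5, 85.2 and 39.7. Replicate 2 was highest and replicate 1 lowest under both siRNAs, and siNUF2 replicate 1 lay below siControl replicates 2 and 3. Within the pairs the siNUF2 library stood at 145.3% to 179.2% of its control. The SE fell from 0.725 without the block (limma, adjusted p = 0.944) to 0.0676 with it (adjusted p = 0.0141). Without the block, single libraries moved the log2 fold change of 0.68: it was 0.08 without siControl replicate 1, 0.18 without siNUF2 replicate 2, 1.20 without siNUF2 replicate 1 and 1.26 without siControl replicate 2. With the block and a replicate number left out it lay between 0.60 and 0.76.

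CYR61 was at 351.3, 481.3 and 285.6 FPKM with siNUF2 in ACHN cells and at 270.5, 359.8 and 229.3 with siControl, higher in each pair (adjusted p = 0.809 by limma, and 0.0151 with the block), with a log2 fold change of 0.19 without siNUF2 replicate 2 and 0.23 without siControl replicate 3. YAP1 was at 18.1, 18.0 and 19.1 FPKM against 14.5, 15.9 and 16.1, without overlap (adjusted p = 0.488 by limma, and 0.0375 with the block). TEAD4, at 35.2, 51.3 and 44.4 FPKM against 29.3, 42.1 and 33.0, overlapped but was higher in each pair (adjusted p = 0.764 by limma, and 0.0271 with the block), with a log2 fold change of 0.22 without siNUF2 replicate 2. All 3 genes thus depended on the block for their call.

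**Figure D3:**
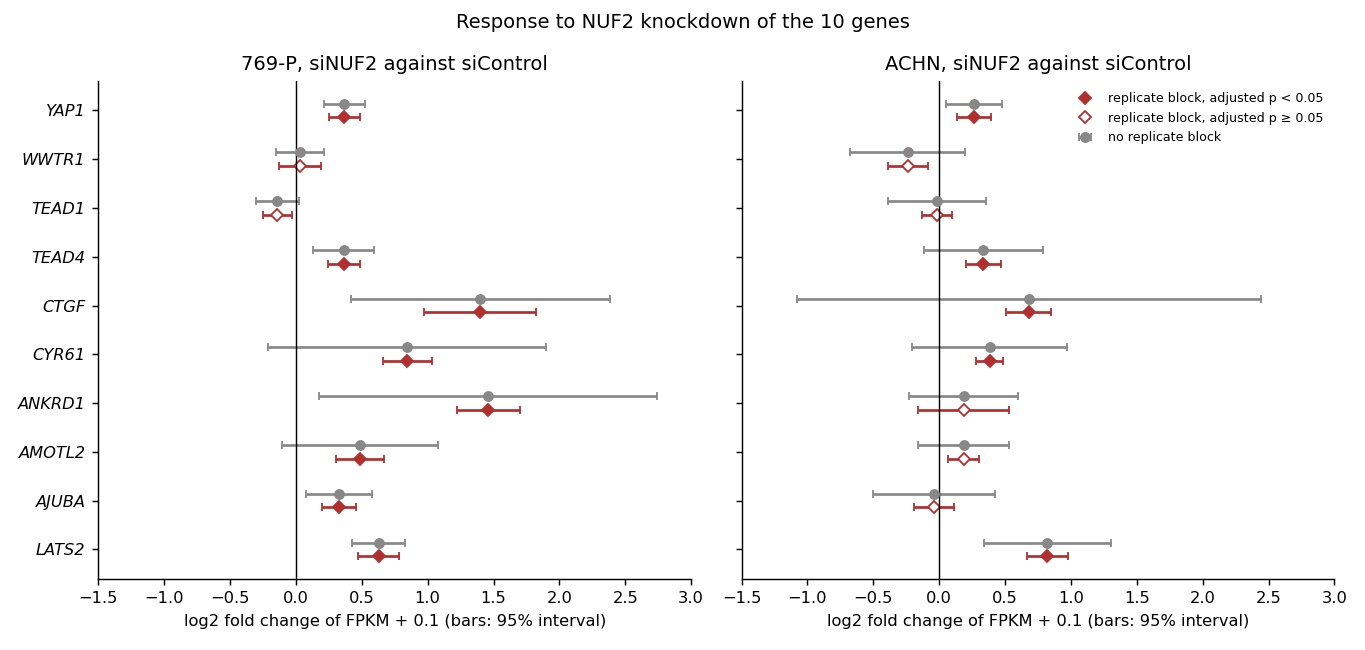
Log2 fold change of FPKM + 0.1 for siNUF2 against siControl in the 769-P line (left) and the ACHN line (right), with 95% intervals from limma without the replicate block (grey) and with it (red, filled where the adjusted p was under 0.05; 3 libraries per group). The estimates are the same in both fits and the intervals narrow with the block; 8 genes are filled on the left and 5 on the right.

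The other 5 genes did not pass in ACHN cells. AMOTL2 was at 77.8, 98.2 and 103.2 FPKM against 72.2, 87.0 and 87.3, higher in each pair but not called (adjusted p = 0.874 by limma, and 0.0624 with the block). ANKRD1, which had moved most in 769-P, was at 4.85, 4.67 and 5.25 FPKM with siNUF2 and at 5.51, 3.99 and 3.73 with siControl, lower in replicate 1 and higher in the other two. AJUBA was at 43.1, 67.4 and 54.5 FPKM against 49.1, 66.1 and 54.4, and TEAD1 at 19.1, 26.0 and 23.7 against 19.9, 25.6 and 24.4. WWTR1 was lower in each pair, at 17.3, 23.4 and 20.7 FPKM against 19.2, 27.4 and 27.1 (adjusted p = 0.87 by limma, and 0.0636 with the block). In all, 2 genes lay wholly above their controls, against 7.85% of all genes tested, and 6 were higher in all 3 pairs, against 26.9%.

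Whether the lines responded differently was tested directly in all 12 libraries, through the difference of the 2 responses. By limma without the block 0 of the 10 genes and 0 of 16580 genes in all (0%) were called, and limma-voom also called 0 genes; 774 genes (4.67%) had an unadjusted p under 0.05, none of them in the list. With a block for each pair of libraries 1 gene of the list was called, ANKRD1, whose response was larger in 769-P by 1.28 on the log2 scale (SE 0.174, limma, adjusted p = 0.0366), against 0.802% of genes with a higher and 0.531% with a lower response in 769-P. That call was lost with a pseudocount of 1 (a difference of 0.77, adjusted p = 0.0641) and with any replicate number left out (0.113 to 0.224). For CTGF the difference of the responses was 0.72 (95% interval with the block 0.30 to 1.15, adjusted p = 0.0994), but 0.14 with a pseudocount of 1 and, without the block, 0.15 without ACHN siControl replicate 2 and 1.33 without ACHN siControl replicate 1. For CYR61 it was 0.46 (0.24 to 0.68, adjusted p = 0.0688), and without the block it was 0.048 without 769-P siControl replicate 2 and 0.83 without 769-P siControl replicate 1. The ANKRD1 difference was 0.81 without 769-P siNUF2 replicate 1, likewise without the block. LATS2 responded by 0.63 in 769-P against 0.82 in ACHN, a difference of -0.19 (95% interval with the block -0.40 to 0.01). Without ACHN siNUF2 replicate 3 that difference was -0.011. YAP1 differed by 0.11 (-0.03 to 0.24) and TEAD4 by 0.03 (-0.12 to 0.18).

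Other genes of the Hippo cascade and cofactors of TEAD formed a list of 28, of which 25 were tested in each line. In 769-P 1 of them rose and 1 fell without the block, against 5.34% and 4.59% of all genes tested. Limma-voom without the block called 7 of them, and its share of all genes is not given here. MAP4K4, a kinase that activates LATS kinases, was at 16.4, 16.3 and 17.4 FPKM with siNUF2 against 9.91, 10.1 and 8.62 (log2 fold change 0.81, limma, adjusted p = 0.00522). TEAD3, another TEAD factor, was at 3.84, 5.19 and 4.86 FPKM against 6.55, 7.09 and 7.41 (log2 fold change -0.59, limma, adjusted p = 0.0308). With the block 6 rose (MAP4K4, FRMD6, VGLL4, AMOT, WTIP and NF2) and 5 fell (TEAD3, MOB1B, STK4, WWC2 and FAT1), 11 of 25, where 13.8% of all genes rose and 13.8% fell. FRMD6, AMOT and NF2 encode upstream scaffolds of the cascade, VGLL4 competes with YAP for TEAD, STK4 is the kinase MST1, and MOB1B is a partner of LATS kinases. Genes that restrain YAP were found on both sides, with NF2 and AMOT among those that rose and STK4 and MOB1B among those that fell, and the list's median was -0.06.

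In ACHN cells the same list had 0 calls by limma without the block and by limma-voom, with 3 genes at an unadjusted p under 0.05. With the block 4 rose and 1 fell, against 6.71% and 4.88% of all genes tested: VGLL4 (log2 fold change 0.70, adjusted p = 0.019), WWC1 (0.46), SAV1 (0.40) and MAP4K4 (0.28) were higher and TEAD3 was lower (-0.49, adjusted p = 0.0234, both by limma). SAV1 is the scaffold of the MST kinases and WWC1 (KIBRA) an upstream activator. MAP4K4, VGLL4 and TEAD3 therefore passed with the block in both lines and in the same direction. Within the TEAD family, TEAD4 was higher, TEAD3 lower and TEAD1 not called in both lines with the block, and TEAD2 was at 6.86 FPKM with siNUF2 against 7.26 in the 769-P line, and at 5.73 against 5.66 in the ACHN line (group means).

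Of 21 further genes known as targets of YAP/TAZ with TEAD, 15 were tested in 769-P, where the others were too low, and 19 in ACHN. In 769-P 4 rose without the block and 1 fell, against 5.34% and 4.59% of all genes tested. Limma-voom without the block called 6 of the targets, and its share of all genes is not given here. THBS1, the matricellular protein thrombospondin 1, was at 39.6, 28.7 and 38.0 FPKM with siNUF2 against 14.2, 9.996 and 9.79 (log2 fold change 1.66, limma, adjusted p = 0.00561). CRIM1 (0.97), CAV1 (0.59) and BIRC5 (0.57) rose as well, and FJX1 fell by 0.51 on the log2 scale. With the block IGFBP3 (1.11), NUAK2 (0.90), AXL (0.60), ARHGEF17 (0.58) and MYOF (0.45) were added to the genes that rose and ASAP1, GADD45A, NT5E and PTPN14 to those that fell, 9 and 5 of 15 in all, against 13.8% of all genes in each direction. The median of the 15 was 0.57, against -0.0076 over all genes tested.

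In ACHN cells 0 of the 19 targets were called without the block by limma or by limma-voom, with 2 at an unadjusted p under 0.05. With the block 7 rose and 1 fell, against 6.71% and 4.88% of all genes tested. Those that rose were IGFBP3 (log2 fold change 1.31), CCDC80 (0.85), BIRC5 (0.56), CRIM1 (0.54), THBS1 (0.53), NUAK2 (0.42) and AXL (0.22). PTPN14, a phosphatase that binds YAP, fell by 0.30. The median was 0.098. In the comparison of the siControl libraries, CCDC80, TGFB2, FOXF2 and RBMS3 passed the filter through ACHN cells alone. Their 769-P siControl values were at most 0.169 FPKM, and they are left out of the count. Of the other 15 targets 11 were lower in 769-P siControl and 2 were higher, from -4.24 for THBS1 to 0.88 for NT5E, against 30.2% and 31.1% of all genes tested. Of the 25 cascade genes tested 11 were lower and 4 were higher, beside the same shares.

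**Figure D4:**
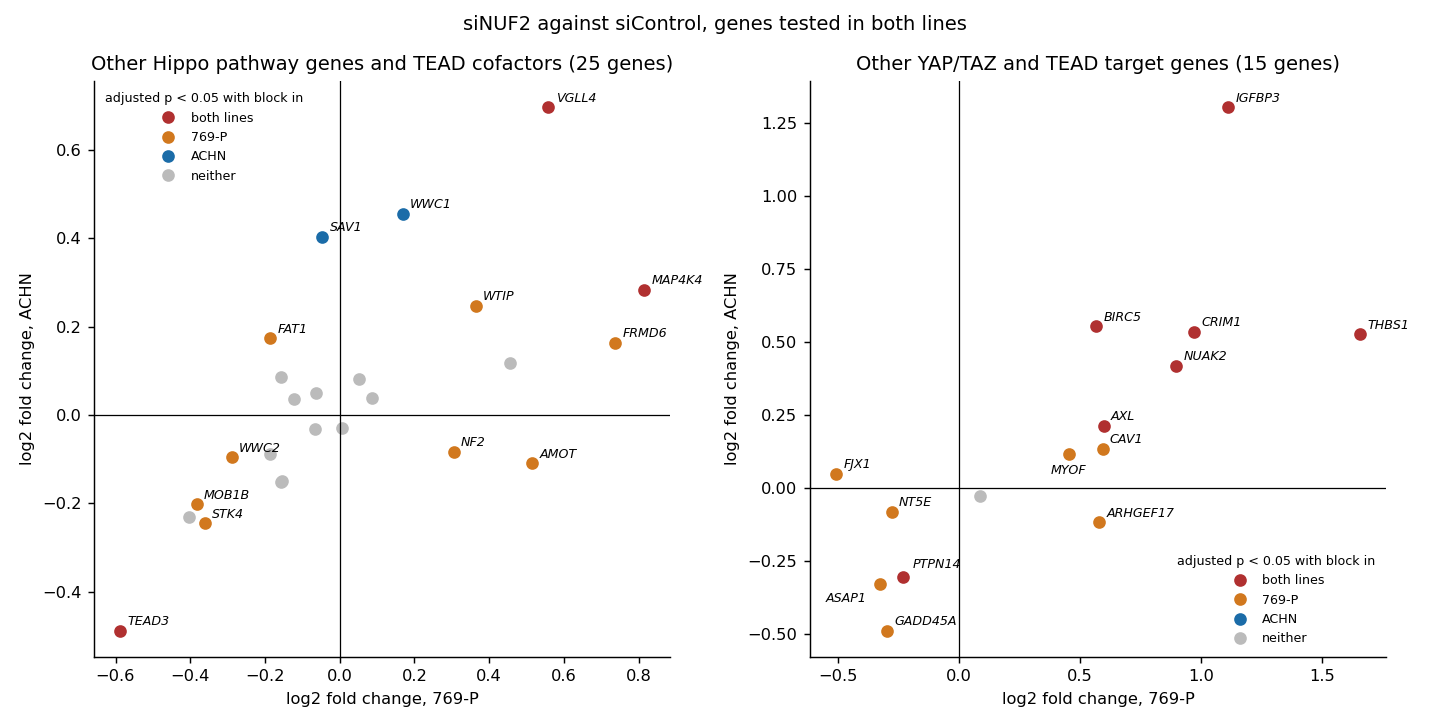
Log2 fold change of siNUF2 against siControl in 769-P (horizontal axis) and ACHN cells (vertical axis) for genes of the 2 further lists that were tested in both lines, 25 cascade genes and cofactors (left) and 15 targets (right). Colours mark an adjusted p under 0.05 with the replicate block in both lines, 1 line or neither; TEAD3 lies low in both, and THBS1 and IGFBP3 lie high in both.

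Across the 12 libraries, after each line was centred on its own mean, the levels of some members ran closely together. YAP1 ran closest to LATS2 (Pearson r = 0.894), CTGF to AJUBA (0.896) and CYR61 to ANKRD1 (0.86) and AMOTL2 (0.835). WWTR1 ran with TEAD1 (0.746) and not with LATS2 (-0.26) or YAP1 (-0.08). YAP1 did not run with TEAD1 (-0.18), and the lowest value in the list was that of TEAD1 and ANKRD1 (-0.48). These libraries share the knockdown and the replicate numbers, and the values are descriptions over 12 libraries. Among all 12932 genes tested in both lines, the closest to CTGF were PADI1 (r = 0.964), NPC2 (0.96) and SPDL1 (0.944), the closest to CYR61 were CCT3 (0.948), GALNS (0.941) and SLX4IP (0.933), and the closest to ANKRD1 were SLC4A7 (0.921), LINC01111 (0.912) and PPID (0.911).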

How the data were processed

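RNA sequencing libraries of 769-P and ACHN cells were analysed from FPKM that the authors deposited, 1 value per gene and library. The submitters' processing notes name HISAT2 2.0.5, featureCounts 1.5.0-p3 and the build hg38. The paper adds read filtering with fastp, and its differential genes came from a test on counts, which were not used here.

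FPKM were scaled over the libraries of each fit by a trimmed mean of log ratios (30% of log ratios and 5% of levels trimmed, factors 0.989 to 1.013), and log2(FPKM + 0.1) was fitted with limma 3.58.1 (lmFit, and eBayes with a trend, two-sided) in R 4.3.3 on all genes that reached a scaled FPKM of 0.5 in 3 or more libraries. Fold changes are on that scale, which understates those of low genes. Benjamini-Hochberg adjustment ran over all genes tested, and a gene was called at an adjusted p under 0.05. Each line was fitted alone, and the difference of the responses over all 12 libraries. Whole reads came back from the FPKM for 34601 of the 36305 genes above 0 (95.3% of values within 0.02 of a whole read), all members included, and served for depth and limma-voom. No pair of libraries of a group was a copy of another (chi-square per gene at least 14.1).

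Replicate numbers come from the labels. They were taken to pair siNUF2 with siControl libraries by the check of deviations given above, in which every pair was over 0.1. The siControl libraries were not taken as paired across lines (-0.0545, -0.0117 and 0.0419). Only same-numbered libraries were compared in that check, and other ways of matching the libraries of a line were not tested.

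The 10 members were given by name. Of the lists of 28 cascade genes and 21 targets (1 further target is not reported here), the genes named are those that passed an adjusted p of 0.05 in either line, with or without the block, with others named for their values after these were seen. The 3 genes most like CTGF, CYR61 and ANKRD1 were also named. Members and lists were chosen with earlier results of these data known. The fits were run on simulated data with the same spread set for both lines. In the real libraries the median SD per gene on the log2 scale was 0.144 in 769-P siControl and 0.221 in ACHN siControl. The simulation therefore did not represent the ACHN spread, and its outcome is not given here. The alternatives were median-ratio scaling, no further scaling, pseudocounts of 1 and 0.01, no filter, the block, all 12 libraries in one fit, limma-voom, and each library left out; blocks with a pseudocount of 1, with limma-voom or without a replicate number were added after seeing the data.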

Additional observations from a re-analysis of the deposited data

Results flagged for a closer look

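The response to siNUF2 differed between the lines, by the interaction test with a block for each pair of libraries, in 4 genes of the 3 lists. Over all 16580 genes tested, 0.802% had a higher and 0.531% a lower response in 769-P by that test. ANKRD1 rose more in 769-P, by 1.28 on the log2 scale (limma, adjusted p = 0.0366 with the block and 1.00 without). As given above, the ANKRD1 call was lost with a pseudocount of 1 and with any replicate number left out. THBS1 also rose more in 769-P, by 1.13 (adjusted p = 0.0331 by limma with the block). The response in 769-P minus that in ACHN was -0.56 for FJX1 (adjusted p = 0.0401) and -0.36 for FAT1 (adjusted p = 0.0357), both by limma with the block. Without the block none of the 4 passed, and the cause of these differences was not tested.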

How the results depend on the processing

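The siControl libraries of the lines were compared first, and all 10 calls kept their direction and stayed past the threshold under every alternative, the replicate block included. In 769-P the count of members called was 2 without the block, 3 with limma-voom and 8 with the replicate block. It was 1 with all 12 libraries in one fit, and 1 to 4 with single libraries left out. The block gave 8 with a pseudocount of 1, 9 with limma-voom (8 higher and 1 lower, TEAD1), and 5 to 8 with a replicate number left out, the 5 being without replicate 2. The 4 came without siControl replicate 1. For either line, the share of all genes called with a library or a replicate number left out is not given here. In ACHN cells the count was 0 without the block and with single libraries left out, 5 with the block, 1 with all 12 libraries in one fit, 5 with the block and a pseudocount of 1, 7 with the block and limma-voom (6 higher and 1 lower, WWTR1), and 0 to 3 with the block and a replicate number left out. For the difference of the responses it was 0 without the block, 1 with it and 5 with the block and limma-voom (CTGF, CYR61, ANKRD1, AMOTL2 and AJUBA), and 0 with the block and a pseudocount of 1 or a replicate number left out. The share of all genes called for that difference with the block and limma-voom is not given here, so the 5 cannot be set against it. The paired fits thus changed most counts of calls; the cause was not tested beyond the narrower spread within pairs. Over all genes tested, 1406 were called in 769-P without the block, 3915 with it, 636 with no filter, 705 with all 12 libraries in one fit and 4825 with the block and limma-voom; in ACHN cells these were 0, 1752, 0, 168 and 3236. No call of a member changed direction. Fold changes of CTGF and ANKRD1 in 769-P fell by over 1.5 times with a pseudocount of 1, and that of CTGF in ACHN cells lay between 0.080 and 1.26 with single libraries left out. Values near 0 changed sign. With single libraries left out WWTR1 in 769-P lay between -0.031 and 0.070, TEAD1 in ACHN cells between -0.12 and 0.11, AJUBA in ACHN cells between -0.19 and 0.12, and TEAD4 in the difference of the responses between -0.12 and 0.15. With the block and a replicate number left out these lay between -0.039 and 0.10, -0.034 and 0.0075, -0.075 and 0.031, and -0.029 and 0.081, in the same order. In 769-P siControl CTGF had 28 to 82 reads per library and ANKRD1 28 to 98; the share of counting error in the spread was not measured.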
